A study of Mus musculus with 3 samples.

Results

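The genes described here are the mouse gasdermin C copies Gsdmc, Gsdmc2, Gsdmc3 and Gsdmc4 and their relative Gsdmd, 5 of the 31053 genes measured, in urothelial cells of the mouse bladder. They were chosen by name, with earlier results of these data known. The readouts that go with that choice are the share of urothelial cells with each gene, whether the copies were found in the same cells, and how they went with the keratin gene Krt4. Those values are therefore given as descriptions, with no test. Cells counted as urothelial had at least 5000 UMIs (unique molecular identifiers, 1 per captured RNA molecule) and at most 20% of UMIs from mitochondrial genes.

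Single-cell RNA of the bladder lining was sequenced from wild-type mice, Lpar6 knockout mice and Cab39l knockout mice, as 10x 3' tags, with 1 library per genotype. The product of Lpar6 is a cell surface receptor that binds lysophosphatidic acid, and that of Cab39l is a scaffold of the LKB1 kinase complex. Cells of 15 mice went into each library as 1 pool, released by trypsin put into the bladder, so animals cannot be told apart. The labels give no strain, age, sex or treatment and leave unstated how the 2 genes were disrupted. With 1 library per genotype there is no replicate and no test across genotypes. Values set out in threes follow the order wild type, Lpar6 knockout, Cab39l knockout, and intervals are exact 95% intervals that cover counting error only.

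Gasdermins are pore-forming proteins. A protease cuts the protein, the freed front end inserts into a membrane as a ring-shaped pore, and the cell can swell and burst, a form of death called pyroptosis. Gsdmd is cut by the inflammatory caspases, and mouse Gsdmc genes are known from the gut lining, where the type 2 cytokines IL-4 and IL-13 raise them through Stat6. Humans have a single GSDMC gene, cut by caspase-8 in tumour cells, where the mouse has a cluster of copies.

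In GENCODE vM21 (GRCm38/mm10) the 4 copies lie side by side on the minus strand of chromosome 15. Gsdmc is at chr15:63775968-63808759, Gsdmc2 at chr15:63824346-63845177, Gsdmc3 at chr15:63857724-63878558 and Gsdmc4 at chr15:63891264-63912297. Gsdmd is on the plus strand of the same chromosome at chr15:75862327-75867408, and Krt4 is on the minus strand at chr15:101918535-101924735. The coding sequences of Gsdmc2 and Gsdmc3 (1443 bases each) were 97.1% identical, with 42 mismatches. Gsdmc4 shared 93.0% with each of these, Gsdmc between 82.8% and 84.0% with the other copies, and Gsdmd between 51.4% and 52.3% with the copies.

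The last 90 coding bases, stop codon included, are shown because they show how little separates the coding ends of the copies. They lie in exon 12 of transcript Gsdmc2-202 (chr15:63824878-63824967), exon 13 of Gsdmc3-203 (chr15:63858271-63858360) and exon 12 of Gsdmc4-202 (chr15:63891804-63891893). After them come 3' untranslated regions of 532, 544 and 540 bases in that order, and 3' tags are read near the transcript end. These regions were 89.8% (Gsdmc2 and Gsdmc3), 85.8% (Gsdmc2 and Gsdmc4) and 90.1% (Gsdmc3 and Gsdmc4) identical, gaps counted. Sequences are written 5′ to 3′ on the minus strand from the GENCODE vM21 transcripts, and capitals mark bases that differ from Gsdmc2 at the same place.
Gsdmc2: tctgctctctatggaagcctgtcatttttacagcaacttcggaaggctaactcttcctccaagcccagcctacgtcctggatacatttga
Gsdmc3: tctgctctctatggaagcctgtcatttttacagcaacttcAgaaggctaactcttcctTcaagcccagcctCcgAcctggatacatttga
Gsdmc4: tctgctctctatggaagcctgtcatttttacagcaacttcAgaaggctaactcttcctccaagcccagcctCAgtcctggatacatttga
Gsdmc3 differed from Gsdmc2 at 4 of the 90 bases and Gsdmc4 at 3. The first 90 coding bases, where the membrane-inserting front end of the protein begins, are shown to set Gsdmc beside the other copies.
Gsdmc: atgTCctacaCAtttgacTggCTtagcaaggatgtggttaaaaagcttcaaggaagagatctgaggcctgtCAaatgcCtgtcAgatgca
Gsdmc2: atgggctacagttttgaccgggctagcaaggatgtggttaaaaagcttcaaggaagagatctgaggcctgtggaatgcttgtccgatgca
Gsdmc3: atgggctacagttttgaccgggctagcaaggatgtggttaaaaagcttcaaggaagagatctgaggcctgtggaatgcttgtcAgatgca
Gsdmc4: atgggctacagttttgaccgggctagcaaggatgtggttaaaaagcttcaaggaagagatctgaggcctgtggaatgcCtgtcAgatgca
Here Gsdmc differed from Gsdmc2 at 11 bases, Gsdmc3 at 1 and Gsdmc4 at 2.

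These likenesses limit how far the copies can be told apart. Of the 411 windows of 90 bases in the last 500 bases of each transcript, 31.4% of those of Gsdmc2 were also found in a transcript of Gsdmc or Gsdmc3. The same held for 18.0% of the windows of Gsdmc3 (found in Gsdmc2), 10.5% of those of Gsdmc (found in Gsdmc2) and 0 of those of Gsdmc4. How reads that match several copies were counted is not stated in the labels or processing notes, so the split between Gsdmc2 and Gsdmc3 is uncertain, and the 4 copies are also given as 1 sum.

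The urothelial cells numbered 2934, 4448 and 4974 by library, 12356 in all. Their median depths were 21678, 26759 and 29292.5 UMIs, and their median mitochondrial shares were 9.13%, 6.29% and 6.19%. All 13 urothelial markers were detected in each library, with summed levels of 19658 to 22342 CPM (UMIs per 1000000 UMIs of these cells). Lpar6 had 13.9 CPM in wild type, 0 UMIs in its own knockout and 12.3 CPM in the Cab39l knockout. Cab39l had 112.4 CPM in wild type, 93.4 CPM in the Lpar6 knockout and 31.8 CPM in its own knockout. Since the deleted part is not given, these levels are no full check of the genotype. The wild-type library stood apart from the other two, since clusters 4 and 7, whose leading genes included Gm42418 and Lars2, held 1061 and 939 of its 2934 cells but 30 and 43 Lpar6 knockout cells and 109 and 88 Cab39l knockout cells. Whether genotype or library sets this cannot be told apart. Pairs of libraries shared between 2 and 7 cell barcodes among these cells.

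Gsdmc2 was the most abundant copy in each library. It had 1223, 1470 and 1634 UMIs. The levels were thus 17.2 CPM (interval 16.3 to 18.2), 12.5 CPM (11.9 to 13.2) and 11.3 CPM (10.8 to 11.9). The wild-type interval lies above those of both knockouts, but such intervals do not cover the clumping of UMIs in few cells, described below. Relative to the median gene, also described below, the log2 ratios of Gsdmc2 over wild type were -0.062 (Lpar6 knockout) and -0.22 (Cab39l knockout). Each 3' tag stands for 1 transcript, so levels of genes may be set side by side without scaling by length. For the copies this is limited by tags that match several of them, whose counting is not stated. At full depth 13.7% of wild-type, 8.25% of Lpar6 knockout and 11.7% of Cab39l knockout cells held Gsdmc2. With each cell thinned to 5000 UMIs, so that depth is equal, the shares were 6.48% (5.61 to 7.43), 3.78% (3.24 to 4.38) and 4.66% (4.09 to 5.29).

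Gsdmc3, the near-identical neighbour, came next among the copies. It had 249, 322 and 281 UMIs, a level of 3.51, 2.75 and 1.95 CPM. After thinning, 2.04% (1.56 to 2.62), 1.17% (0.874 to 1.53) and 1.01% (0.747 to 1.32) of cells held it. Wild type was again the highest, and the intervals of the shares in the knockouts overlapped. Gsdmc4 and Gsdmc were close to the limit of detection. Gsdmc4 had 4, 7 and 10 UMIs, each in a different cell. Gsdmc had 0, 3 and 2 UMIs, and 0 of 2934 wild-type cells allows a share of up to 0.102% of cells with a UMI (3 counts of the total).

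Gsdmd was found in more cells than Gsdmc2 at full depth but at fewer UMIs per cell. It had 713, 765 and 1399 UMIs, levels of 10.1 CPM (9.33 to 10.8), 6.53 CPM (6.08 to 7.01) and 9.71 CPM (9.21 to 10.2). The Lpar6 knockout was the low library for Gsdmd, whereas wild type and the Cab39l knockout overlapped. The summed level of the basal markers moved the same way in these cells, at 1663.5, 555.6 and 1612.4 CPM (6 of 7 detected in each library, Krt14 at 0). The markers did not all share this order. In thinned cells without any copy, Krt15 was found in 65.9%, 25.3% and 71.0% and Krt5 in 69.8%, 55.4% and 72.1%. Trp63, at 55.2%, 38.4% and 38.8%, was low in both knockouts. The part of the basal markers in the Gsdmd difference was not tested. Cells with Gsdmd made up 19.7%, 15.2% and 23.3% at full depth, and 5.76% (4.94 to 6.67), 3.71% (3.17 to 4.31) and 5.07% (4.47 to 5.71) after thinning. By level, the order in each library was Gsdmc2, Gsdmd, Gsdmc3, then Gsdmc4 and Gsdmc, whose intervals overlapped in each library.

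**Figure D1:**
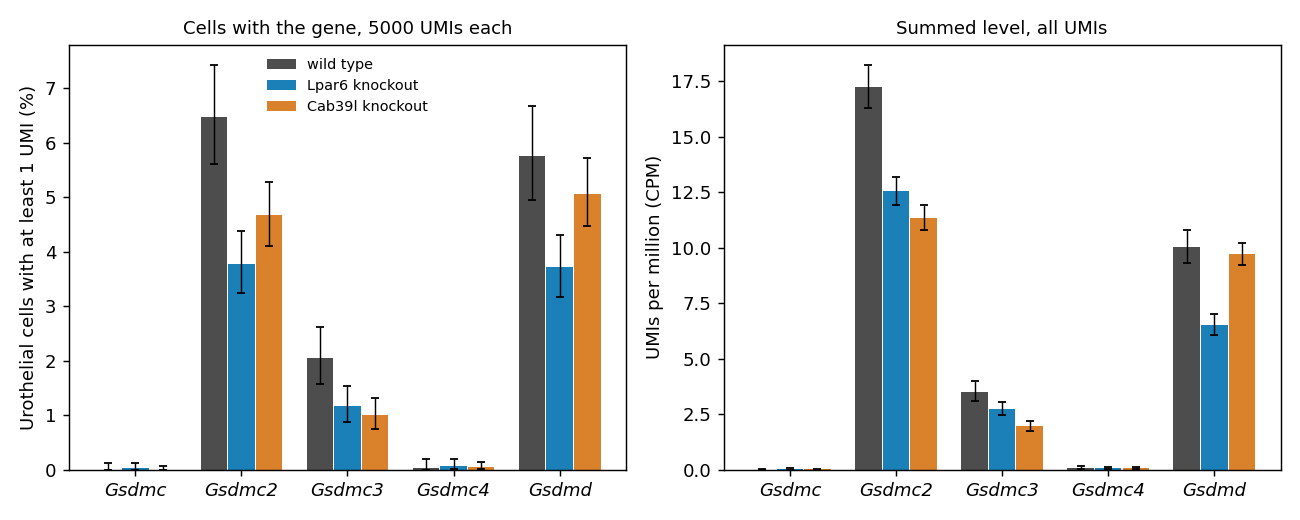
Share of urothelial cells with at least 1 UMI of each gene after thinning to 5000 UMIs per cell (left, %) and summed level over all UMIs (right, CPM), by library, with exact 95% intervals of counting error. Gsdmc2 reached 6.48% of wild-type cells and 17.2 CPM, and Gsdmc and Gsdmc4 are near 0 in the 3 libraries.

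Summed over the 4 copies, the levels were 20.8 CPM (19.8 to 21.9), 15.4 CPM (14.7 to 16.1) and 13.4 CPM (12.8 to 14.0). Cells with any copy after thinning made up 7.36% (6.44 to 8.37), 4.14% (3.57 to 4.76) and 5.25% (4.64 to 5.90). The order of the knockouts differed between these measures: the Lpar6 knockout had the higher summed level but the lower share of cells. To gauge RNA picked up from the liquid around the cells, lymphoid-like cells of the same libraries were thinned to 2000 UMIs beside the urothelial cells. A copy was then found in 5 of 466 lymphoid-like cells (1.07%, 0.349 to 2.49, median depth 3002 UMIs, 158 shallower cells left out) and in 0 of 257 macrophage- or dendritic-like cells (which allows up to 1.17%, 3 counts of the total, median depth 6054 UMIs). At that depth 2.86% of the 12356 urothelial cells held a copy, or 4.16%, 2.45% and 2.45% by library. The lymphoid-like cells with a copy were 4 of 306 (0.357 to 3.31%), 0 of 32 (up to 9.38%) and 1 of 128 (0.0198 to 4.28%). Library by library, the urothelial share lay above that range in wild type alone. In the knockouts, with only 32 and 128 lymphoid-like cells to set them against, the copies are therefore not shown to exceed free RNA by this measure. As a summed level over the libraries the gap was smaller: the copies had 8.27 CPM (4.82 to 13.2, from 17 UMIs) in lymphoid-like and 15.7 CPM in urothelial cells. In wild type the lymphoid-like cells had 11.5 CPM (6.26 to 19.2) beside 20.8 CPM. Those of the Lpar6 knockout had 0 UMIs (0 to 22.4 CPM) beside 15.4 CPM, and those of the Cab39l knockout 4.48 CPM (0.924 to 13.1) beside 13.4 CPM. The macrophage- or dendritic-like cells of all libraries had 3.83 CPM (1.54 to 7.90).

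Gsdmd had no such low class to set it against. Macrophage- or dendritic-like cells held Gsdmd at 71.2 CPM and lymphoid cells at 21.9 CPM, both above the 6.53 to 10.1 CPM of the urothelial cells. At 2000 UMIs per cell it was found in 12.8% of macrophage- or dendritic-like, 5.58% of lymphoid and 1.88% of urothelial cells. How much of the urothelial Gsdmd came from free RNA was not tested.

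The UMIs of the copies were held by few cells, unlike those of Gsdmd. The 1% of cells richest in the copies (29 wild-type, 44 Lpar6 knockout and 50 Cab39l knockout cells) held 32.0%, 53.6% and 36% of each library's copy UMIs. For Gsdmd the richest 1% held 11.4%, 12% and 9.51%. No cell had more than 4 Gsdmd UMIs, whereas 33 wild-type, 50 Lpar6 knockout and 29 Cab39l knockout cells had at least 10 UMIs of the copies. Those cells held 34.8%, 56.9% and 26.6% of their library's copy UMIs. At the other end, 213, 207 and 329 cells had a single copy UMI.

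The richest cells show what such a cell looks like. In wild type it had 27 Gsdmc2 and 3 Gsdmc3 UMIs among 21250 UMIs, with no Krt4. The richest Lpar6 knockout cell had 63 Gsdmc2 and 4 Gsdmc3 UMIs among 39191, with 1 Krt4 UMI. Its Cab39l knockout counterpart had 35 Gsdmc2 and 5 Gsdmc3 UMIs among 20069, with 43 Krt4 UMIs. So a cell can be very rich in the copies with or without Krt4. Among all cells with at least 10 copy UMIs, 13 of 33, 16 of 50 and 7 of 29 had no Krt4. Their median Krt4 counts were 1, 5 and 12 UMIs. The cells with at least 10 copy UMIs had median depths of 16453, 21580.5 and 31988 UMIs, below the median of all urothelial cells in wild type and the Lpar6 knockout and above it in the Cab39l knockout.

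Gsdmc2 and Gsdmc3 were found in the same cells more often than their separate shares would give. After thinning, 190, 168 and 232 cells held Gsdmc2, 60, 52 and 50 held Gsdmc3, and 34, 37 and 22 held both. The product of the separate shares would give 3.89, 1.96 and 2.33 cells, so the cells with both were 8.75, 18.8 and 9.43 times that number. Among cells with Gsdmc3, 56.7% (43.2 to 69.4) of wild-type, 71.2% (56.9 to 82.9) of Lpar6 knockout and 44.0% (30.0 to 58.7) of Cab39l knockout cells also held Gsdmc2. Among cells without Gsdmc3 these shares were 5.43%, 2.98% and 4.26%. The intervals lie far apart in each library. Reads of 1 gene counted for its neighbour would also place both names in the same cells, and that part was not tested.

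**Figure D2:**
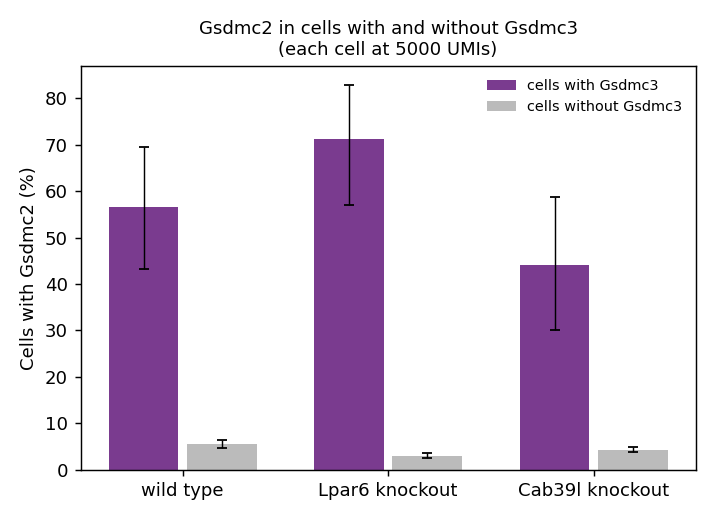
Share of cells with Gsdmc2 (%) among cells with and without Gsdmc3, by library, each cell thinned to 5000 UMIs, with exact 95% binomial intervals. The bars of cells with Gsdmc3 stand at 56.7%, 71.2% and 44.0%, against 5.43%, 2.98% and 4.26% without it.

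Among cells with any copy, 16.2%, 21.2% and 8.81% held 2 or more copies after thinning. These shares depend on depth, and in the Cab39l knockout the share was 16.8% without thinning. In the Lpar6 knockout it was 10.1% when the cells of cluster 11, described further on, were left out. The rare copies followed in part: at full depth, 2 of 4 wild-type, 4 of 7 Lpar6 knockout and 3 of 10 Cab39l knockout cells with Gsdmc4 also held Gsdmc2 or Gsdmc3. Of the cells with Gsdmc, 1 of 2 in the Lpar6 knockout and 2 of 2 in the Cab39l knockout did.

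The proportion of the copies' UMIs named Gsdmc3 varied little between libraries but widely between cells. It was 16.9% (15.0 to 18.9), 17.9% (16.1 to 19.7) and 14.6% (13.0 to 16.2). It was 17.8%, 15.7% and 14.7% in cells with 1 to 3 copy UMIs and 14.6%, 13.9% and 14.7% in cells with 4 to 9. In cells with at least 10 copy UMIs the proportion was 17.9%, 20.2% and 14.3%. Intervals of these bins overlapped in each library. In the Lpar6 knockout those of the upper bins barely did (10.5 to 17.85 and 17.76 to 22.8). From cell to cell among cells with at least 10 copy UMIs it ran from 0 to 90%, 0 to 56% and 0 to 60%. Of these rich cells, 10 of 33, 12 of 50 and 8 of 29 had no Gsdmc3 at all, and none lacked Gsdmc2.

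Gsdmd did not go with the copies in this way. It was found in 6.02% of wild-type cells with a copy (3.24 to 10.1) and 5.74% of those without. The shares were 4.89% (2.26 to 9.08) and 3.66% in the Lpar6 knockout, and 4.21% (2.12 to 7.42) and 5.11% in the Cab39l knockout. Each interval includes the share in cells without a copy. Gsdme, another gasdermin, was likewise found in 4.17%, 3.26% and 2.30% of cells with a copy and in 5.15%, 3.82% and 4.2% of cells without.

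Krt4 encodes a type II keratin of the suprabasal layers of squamous linings such as the oesophagus, where its partner is Krt13. In these cells it had 66.4, 27.4 and 80.0 CPM. After thinning, Krt4 was found in 39.4% (32.8 to 46.2) of wild-type cells with a copy and 15.9% of those without, a difference of 23.4 percentage points (17.0 to 30.2, Newcombe interval). In the Lpar6 knockout the shares were 35.3% (28.4 to 42.7) and 6.85%, a difference of 28.5 points (21.9 to 35.7). In the Cab39l knockout they were 52.5% (46.2 to 58.7) and 19.8%, a difference of 32.7 points (26.5 to 38.8). Krt4 was thus more common in cells with a copy in each of the 3 libraries, although most Krt4 cells had no copy: of 518, 357 and 1071 Krt4 cells, 16.4%, 18.2% and 12.8% held one.

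The share of cells with a copy was higher in bins of more Krt4. In wild type it was 5.42% in cells without Krt4, 8.71% with 1 Krt4 UMI, 19.6% with 2 or 3 and 29.6% with 4 or more. The Cab39l knockout gave 3.18%, 8.33%, 15.4% and 21.9%. The Lpar6 knockout gave 2.91%, 9.57%, 12.7% and 69.6%, the last from 32 of 46 cells. That top bin rested on cluster 11, which supplied 30 of its 46 cells, 28 of them with a copy. In the other clusters 4 of 16 such Lpar6 knockout cells held a copy (25%, 7.27 to 52.4), against 31.1% in wild type and 20.8% in the Cab39l knockout.

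**Figure D3:**
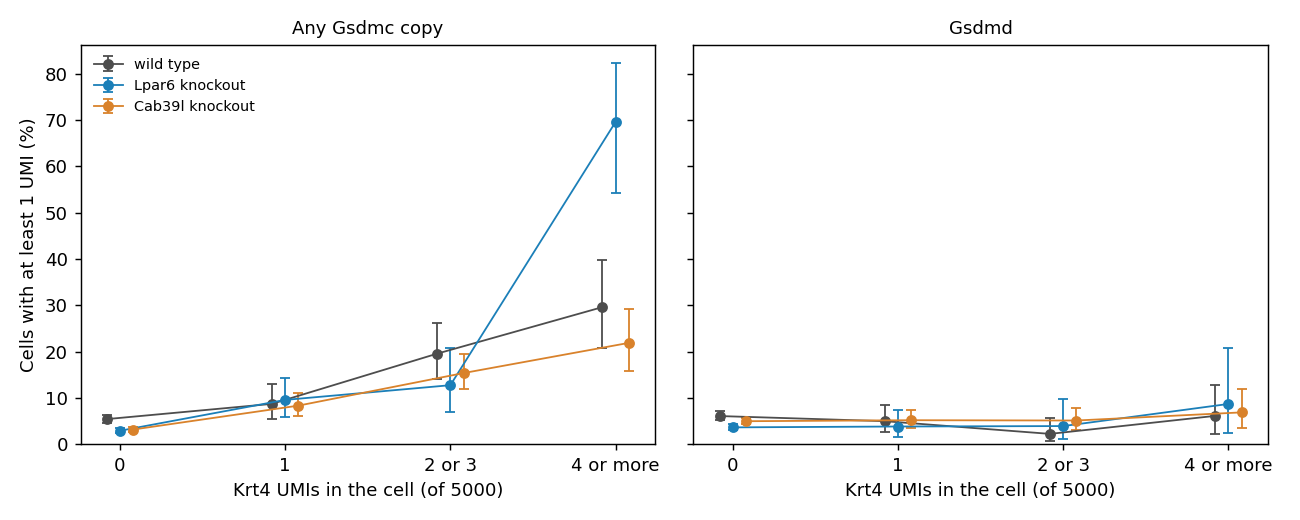
Share of urothelial cells with any Gsdmc copy (left) and with Gsdmd (right), in %, by the number of Krt4 UMIs in the cell, each cell thinned to 5000 UMIs, with exact 95% binomial intervals. The copies go from 5.42% to 29.6% across the bins in wild type and reach 69.6% in the Lpar6 knockout, while Gsdmd stays between 2.23% and 8.70%.

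The relation held for each abundant copy on its own. Krt4 was found in 40.0%, 37.5% and 53.9% of cells with Gsdmc2 and in 50.0%, 59.6% and 46.0% of cells with Gsdmc3. For Gsdmd it did not hold: Krt4 was found in 13.0%, 9.70% and 23.0% of cells with Gsdmd and in 17.9%, 7.96% and 21.5% of cells without, and each interval of the former overlapped that of the latter. Across cells, the correlation of log-transformed thinned counts of the copies and Krt4 was 0.26, 0.42 and 0.21 over 2934, 4448 and 4974 cells. Cells of a library share its depth and free RNA, so these are descriptions only.

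The relation was also present within clusters, which had been formed without the gasdermins and Krt4. In 17 of the 18 pairs of cluster and library with at least 10 cells holding a copy, Krt4 was more common in cells with a copy than in cells without. The exception was cluster 1 of the Lpar6 knockout, with 15.4% against 18.3%. In 8 of the 18 the intervals did not overlap. In cluster 7 of wild type the shares were 50.0% (39.8 to 60.2) and 18.4%, and in cluster 1 of the Cab39l knockout 60.3% (48.5 to 71.2) and 23.4%. With cluster 11 left out, an alternative added after seeing the data, the shares over the remaining cells were 38.8% and 15.6%, 18.1% and 6.74%, and 53.4% and 20.2%. The Lpar6 knockout difference was then 11.4 points in place of 28.5, and the direction was the same in the 3 libraries. Likewise for the copies together, Gsdmc2 was found in 57.1%, 48% and 41.3% of the remaining cells with Gsdmc3 and in 5.24%, 2.58% and 4.03% of those without.

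Cluster 11 was the urothelial cluster with the highest level of the copies, at 105.5 CPM over the 3 libraries. Its leading genes were the keratin gene Krt23, the growth factor gene Areg, Gsdmc3, Gsdmc2 and Tnfrsf12a, and they also included Nupr1 and Ly6a. That level came mostly from the Lpar6 knockout, whose 81 cells of the cluster held 733 copy UMIs, or 482.7 CPM (448.3 to 518.9). The 113 wild-type cells held 133 copy UMIs, 38.5 CPM (32.2 to 45.6), and the 194 Cab39l knockout cells 218, 41.2 CPM (35.9 to 47.0). A copy was found in 13.3%, 56.8% and 11.9% of the cluster's cells after thinning. These 81 cells were 1.82% of the Lpar6 knockout urothelial cells and held 40.7% of that library's copy UMIs. Krt4 too was highest in the Lpar6 knockout there, at 106.7, 513.6 and 58.9 CPM. Gsdmd, at 9.25, 10.5 and 12.3 CPM, differed little between libraries in this cluster, and with cells of 15 mice pooled, whether the cells came from 1 animal or many cannot be told apart.

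Over the libraries together, cluster 7 came next for the copies, at 37.4 CPM. It is mostly a wild-type cluster: its 939 wild-type cells held 43.8% of the wild-type copy UMIs at 38.7 CPM. Its 88 Cab39l knockout cells had 37.0 CPM, and its 43 Lpar6 knockout cells 4 UMIs. Cluster 0, led by Cyp2f2 and Krt15 with the basal keratin gene Krt5 among its leading genes, had 30.8, 23.7 and 13.1 CPM. Cluster 8, led by Clu, Sprr2a3 and Fabp4, had 19.3, 34.5 and 16.2 CPM. Of the 193 copy UMIs in its 174 Lpar6 knockout cells, 67 came from 1 cell, the richest of that library. The lowest was cluster 3, led by Unc13c and Ly6k, with 3.32 CPM over the libraries.

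Gsdmd followed another order over the clusters. Among clusters with at least 50 cells in a library, it was highest in cluster 7 in wild type (17.0 CPM, then cluster 0 at 15.6), in cluster 0 in the Lpar6 knockout (17.2 CPM, then cluster 9 at 12.3) and in cluster 9 in the Cab39l knockout (16.8 CPM, then cluster 0 at 16.7). Cluster 8, among the higher clusters for the copies at 19.1 CPM over the libraries, had the lowest Gsdmd in each library, at 4.05, 2.50 and 4.53 CPM, with intervals that overlapped that of at least 1 other cluster. In cluster 0, which had over 300 cells in each library, Gsdmd had 15.6, 17.2 and 16.7 CPM. Within that cluster the 3 intervals overlapped. In other clusters the Lpar6 knockout was lower: in cluster 1 Gsdmd had 11.8 CPM (7.69 to 17.2), 5.54 CPM (4.03 to 7.44) and 9.57 CPM (8.67 to 10.5). Over the clusters with at least 50 cells in both libraries, the Lpar6 knockout had less Gsdmd than wild type in 4 of 6, with intervals apart in 1 (cluster 1). It had less than the Cab39l knockout in 7 of 8, with intervals apart in 3 (clusters 1, 2 and 3).

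**Figure D4:**
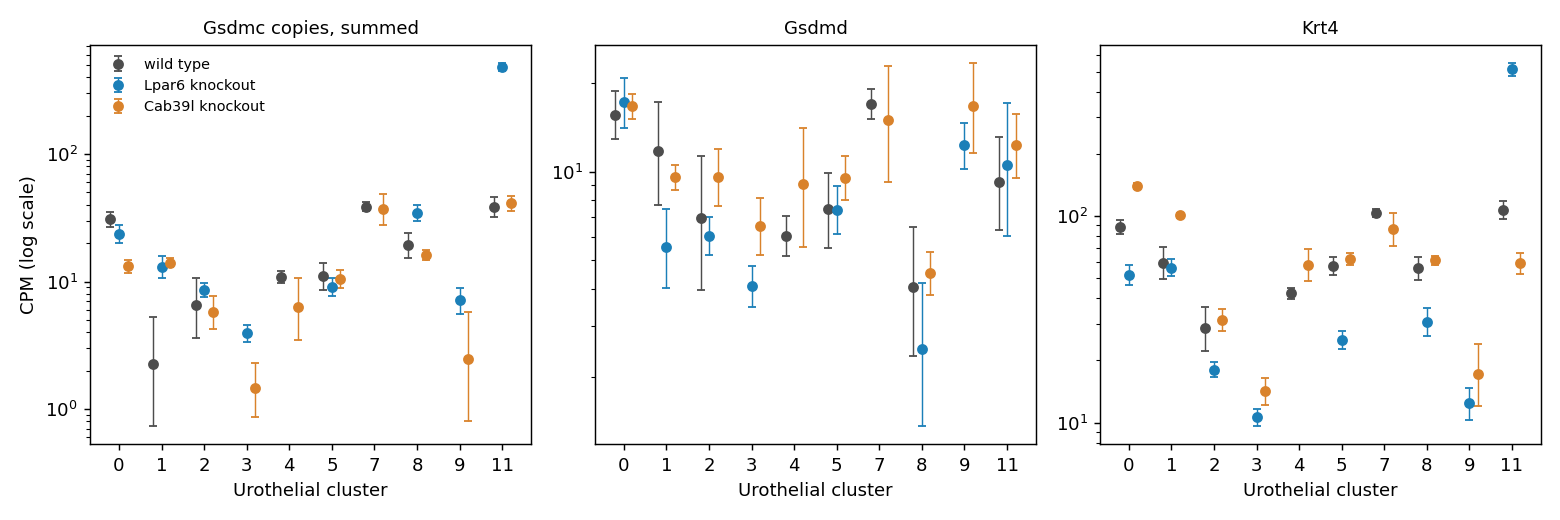
Level of the summed Gsdmc copies, Gsdmd and Krt4 (CPM, log scales that differ between panels) in each urothelial cluster with at least 50 cells in the library, by library, with exact 95% Poisson intervals. The copies and Krt4 of the Lpar6 knockout in cluster 11 stand at 482.7 and 513.6 CPM, far above the same cluster in the other two libraries, while Gsdmd there does not stand apart.

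Beyond Krt4, several genes were set against the copies. Krt15, a keratin of the basal side, was found in 80.1%, 59.8% and 85.1% of cells with a copy and in 65.9%, 25.3% and 71.0% of cells without, with intervals apart in each library. Krt5, the other basal keratin, did not go with it, at 64.8%, 58.7% and 68.6% against 69.8%, 55.4% and 72.1%. Krt13 was close to absent, found in 0 of 216, 1 of 184 and 0 of 261 cells with a copy and in under 1% of the others. The uroplakin gene Upk2 was found in fewer cells with a copy in wild type (83.8% against 91.6%) and the Lpar6 knockout (82.6% against 90.4%), with intervals apart, and in the Cab39l knockout the shares were 89.7% and 88.3%. Upk3a, another uroplakin gene, was found in nearly every cell, so its mean UMIs per thinned cell say more. These were 16.6, 23.6 and 23.4 in cells with a copy and 21.6, 30.4 and 26.1 in cells without, and the shares of cells were 99.5%, 98.4% and 99.6% against 99.9%, 100% and 99.9%, with intervals apart in the Lpar6 knockout.

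The basal factor gene Trp63 had overlapping intervals in each library, at 59.7%, 32.6% and 33.0% of cells with a copy and 55.2%, 38.4% and 38.8% of cells without. For Krt20, a marker of the outermost umbrella cells, the shares were 18.1%, 16.3% and 12.6% against 20.7%, 17.4% and 12.9%, with overlapping intervals. For involucrin (Ivl), Ly6k and Psca the intervals overlapped in each library too. Psca, a surface antigen gene, was common in both kinds of cell, with 78.7%, 95.1% and 94.6% against 85.2%, 97.0% and 93.9%, but its mean UMIs per thinned cell were higher with a copy, at 5.08, 10.25 and 8.34 against 3.99, 7.11 and 5.73. Areg was found in 3.24%, 4.89% and 3.83% of cells with a copy and in 3.61%, 1.74% and 1.85% of cells without, and its intervals did not overlap in the Lpar6 knockout. Cluster 11, with Areg among its leading genes, held 46 of the 184 Lpar6 knockout cells with a copy. Its part in that difference was not tested.

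Ranked by the lowest of the 3 libraries' correlations across cells, among 9999 genes with a UMI in at least 1% of cells in each library, Krt4 was the gene most like the summed copies, at 0.21. The relation to Krt4 was part of the chosen readouts, so its rank is a description and no separate support. Krt4 was followed by Ly6a (the cell surface protein Sca-1) at 0.14, the annexin gene Anxa3 at 0.10, the tropomyosin gene Tpm2 at 0.10 and Krt15 at 0.09. The next were Gpnmb, Cyp2f2, Car8, Mal and S100a11, between 0.08 and 0.09. Ly6a was found in 11.1%, 26.1% and 5.36% of cells with a copy and in 1.77%, 0.915% and 1.29% of those without. In the Lpar6 knockout alone the closest gene was Nupr1, a stress-induced gene, at 0.60, against 0.15 in wild type and 0.07 in the Cab39l knockout, a gene singled out after its values were seen. It was found in 26.6% of the Lpar6 knockout cells with a copy and 0.774% of those without. Of the 184 Lpar6 knockout cells with a copy, 46 lay in cluster 11, whose leading genes include Nupr1 and Ly6a. The Lpar6 knockout values of these genes were not recomputed without that cluster. For Gsdmd no gene reached 0.06 in each library: Trf, Ptgs1, Igfbp2, Krt5 and Krt15 came first, at 0.04 to 0.06, which in counts this sparse is no finding.

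Cells with a copy were shallower than those without, although each had been thinned to the same depth before they were called. Their median full depths were 16587, 18621 and 22480 UMIs, against 22170, 26907 and 29547. Their median mitochondrial shares were 9.51%, 6.32% and 6.16%, against 9.10%, 6.29% and 6.19%. The part of depth in the relations above was not tested beyond the thinning.

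Between libraries, the summed copies had a log2 ratio of -0.44 (-0.54 to -0.34) for Lpar6 knockout over wild type and of -0.64 (-0.74 to -0.54) for Cab39l knockout over wild type. These ratios share the wild-type library. They have to be read against all genes: the median log2 ratio of genes with at least 50 UMIs was -0.40 and -0.38. Relative to that median the ratios of the copies were -0.040 and -0.25. For Gsdmd the log2 ratios were -0.62 (-0.77 to -0.47) and -0.05 (-0.18 to 0.08) in that order, and relative to the median gene -0.23 and 0.33, so its direction in the Cab39l knockout turned with the scaling.

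Calling a gene lower or higher at 1.5-fold, 3 of the 5 members had enough UMIs to be read (Gsdmc2, Gsdmc3 and Gsdmd). In the Lpar6 knockout over wild type 1 was lower (Gsdmd) and 0 higher, where 35.0% of 12737 genes were lower and 2.82% higher. In the Cab39l knockout over wild type 2 were lower (Gsdmc2 at -0.60 and Gsdmc3 at -0.85 log2) and 0 higher, where 35.4% of 12838 genes were lower and 1.78% higher. For the Lpar6 knockout over the Cab39l knockout none was past 1.5-fold, where 3.25% of 12965 genes were higher and 2.92% lower. With this many genes lower than in wild type, the members' counts do not stand out from the background.

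The Lpar6 knockout ratio of the copies also rested on cluster 11. Without the cells of that cluster, an alternative chosen after seeing the data, it was -1.11 (0.464-fold), and the Cab39l knockout ratio was -0.69. In cluster 0 alone the Cab39l knockout ratio of the copies was -1.23 and the ratios of Gsdmd were 0.14 (Lpar6 knockout) and 0.096 (Cab39l knockout).

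The other gasdermins were few. Gsdme had 10.3, 7.76 and 7.89 CPM. Gsdma had 54, 105 and 125 UMIs, Pjvk had 2, 3 and 2, and Gsdma2 and Gsdma3 had none. Neither Gsdme nor Gsdma was past 1.5-fold between libraries on the CPM scale. Relative to the median gene, Gsdma was 1.55-fold over wild type in the Lpar6 knockout and 1.49-fold in the Cab39l knockout. Gsdme was 0.995- and 1.003-fold in that order.

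A list of 43 genes around gasdermin cleavage, pore formation and repair was read in the same cells, of which 29 had enough UMIs in the comparisons with wild type. In the Lpar6 knockout over wild type 14 were lower and 0 higher (median log2 ratio -0.47), and in the Cab39l knockout over wild type 8 were lower and 0 higher (median -0.38). The medians of all genes, -0.40 and -0.38, and their shares given above stand beside these. Between the knockouts 2 of 27 were lower in the Lpar6 knockout and 0 higher, with a median of -0.015.

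Among sensors and the adaptor, 5 of 8 were lower in the Lpar6 knockout (35.0% of all genes were) and 2 of 8 in the Cab39l knockout (35.4% of all genes). The adaptor gene Pycard (ASC), which joins sensors to caspase-1, was abundant and level at 197.9, 191.3 and 206.3 CPM. Naip6, a sensor of bacterial flagellin, had 15.8, 6.79 and 6.90 CPM, log2 ratios of -1.22 and -1.19, or -0.82 and -0.81 relative to the median gene. The sensor gene Nlrp3 had 1 UMI in wild type and 0 in the knockouts, and Nlrc4, the partner of the Naip proteins, 1.2, 0.691 and 0.673 CPM.

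The proteases that cut gasdermins were uneven. Casp1, which cuts Gsdmd, had 2, 4 and 1 UMIs in these cells. Casp4, the other inflammatory caspase gene of the mouse (caspase-11), had 3.68, 2.78 and 3.32 CPM. Casp8 had 20.9, 17.2 and 18.0 CPM, and neither its ratios nor those of Casp6, at 38.1, 35.9 and 37.0 CPM, reached 1.5-fold. Gzma, a protease of cytotoxic lymphocytes, had 67, 3 and 23 UMIs. The summed T- and NK-cell markers in the same cells were 0.860, 0.196 and 0.278 CPM, with 8, 6 and 8 of 8 detected and 2 at 0 in the Lpar6 knockout, and their part in the Gzma counts was not tested.

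Of the released proteins, Il18 had 7.88, 8.73 and 8.08 CPM and Il33 2.07, 0.905 and 1.60 CPM, the latter lower in the Lpar6 knockout (-1.20 log2, or -0.80 relative to the median gene). Il1b had 25, 1 and 1 UMIs, beside summed neutrophil markers of 6.43, 0.478 and 0.187 CPM (5, 5 and 4 of 5 detected) and macrophage or dendritic markers of 8.05, 1.31 and 2.97 CPM (7, 6 and 7 of 8 detected). Their part in the Il1b counts was not tested. For rupture and repair, Ninj1, which tears the membrane after pore formation, had 22.9, 29.6 and 28.8 CPM. Its log2 ratios of 0.37 and 0.33 were short of 1.5-fold on the CPM scale and past it relative to the median gene, at 0.77 and 0.72 (1.70- and 1.64-fold). Of the membrane repair genes, Chmp2a and Chmp4b were abundant (235.4 and 177.1 CPM in wild type), and Chmp4c, at 33.3, 19.8 and 20.03 CPM, was past 1.5-fold lower in both knockouts on the CPM scale but not relative to the median gene (-0.35 and -0.35).

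The genes by which type 2 cytokines reach the Gsdmc copies in the gut were present at low to moderate levels. Il4ra had 2.66, 1.63 and 1.49 CPM, Il13ra1 7.84, 5.80 and 5.72 CPM and Stat6 34.8, 18.6 and 19.1 CPM. Il4ra and Stat6 were past 1.5-fold lower in both knockouts on the CPM scale, as were 35.0% and 35.4% of all genes. Relative to the median gene neither was, at -0.31 and -0.46 log2 for Il4ra and -0.51 and -0.48 for Stat6. The palmitoyltransferase genes Zdhhc5, Zdhhc7 and Zdhhc9, whose products attach lipid to proteins including Gsdmd, had 44.7, 8.97 and 40.1 CPM in wild type and were past 1.5-fold lower on that scale in the Lpar6 knockout (3 of 3). In the Cab39l knockout 2 of the 3 were (Zdhhc7 and Zdhhc9), beside the same shares of all genes. Relative to the median gene, Zdhhc9 in the Lpar6 knockout (-0.63) was past 1.5-fold, and the others lay between -0.44 and -0.11.

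**Figure D5:**
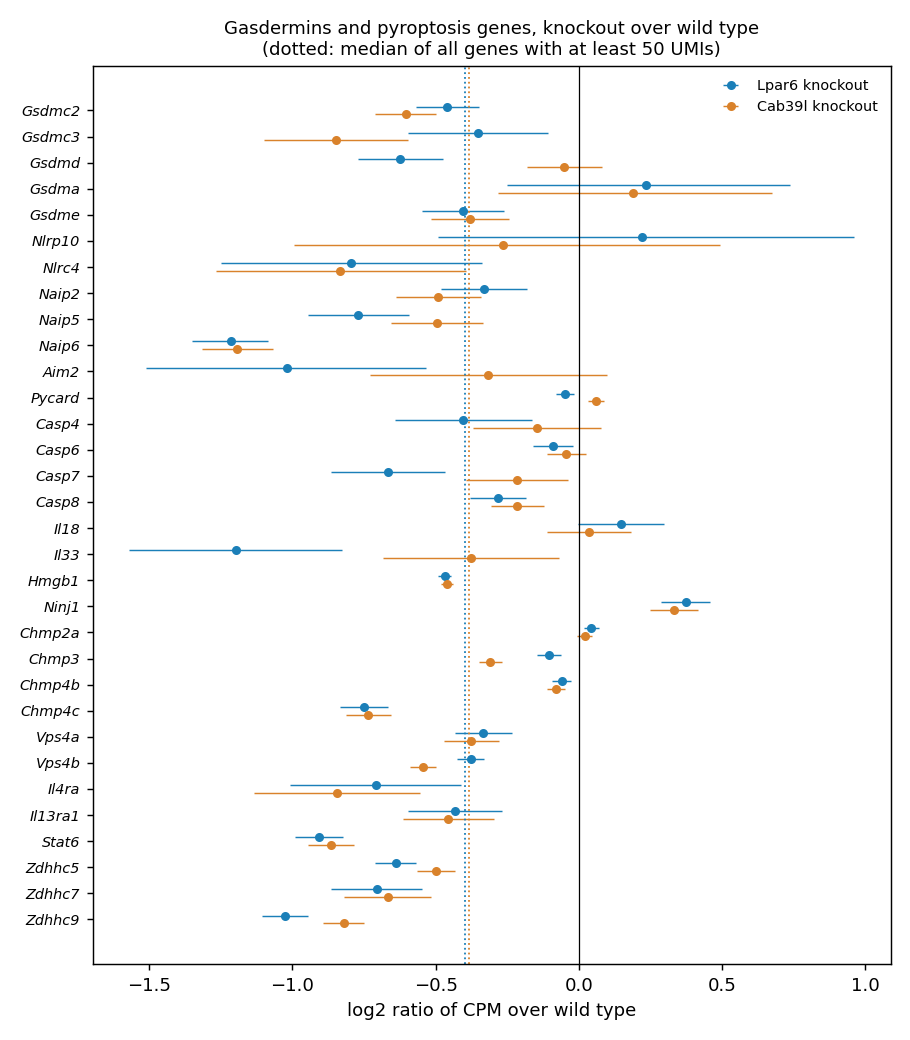
Log2 ratio of CPM in each knockout over wild type for gasdermins and list genes with at least 50 UMIs in both comparisons. Intervals are 95% intervals of counting error, and dotted lines mark the median of all genes (-0.40 and -0.38). Gzma met this limit but is not drawn: its ratios were -5.21 and -2.57. Most points lie left of 0 together with all genes. Of the genes drawn, Naip6 lies further left, at -1.22 and -1.19, and Ninj1 right, at 0.37 and 0.33.

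The cells on both sides of the limits used to choose them were as follows. Just under the depth limit, 16, 11 and 29 urothelial cells had 4000 to 5000 UMIs, of which 1, 0 and 0 held a copy at full depth, and just above it 31, 16 and 24 had 5000 to 6000, of which 8, 1 and 2 did. Among barcodes of any cell type with at least 5000 UMIs, a copy was found at full depth in 15.5%, 5.59% and 9.45% of those with 15 to 20% mitochondrial UMIs. In those with 20 to 25% it was found in 14.4%, 7.09% and 4.71%.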

How the data were processed

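The 3 deposited matrices, 1 per genotype, hold unnormalized UMI counts of each gene in each barcode, made by the authors with Cell Ranger 3.0.2 on mm10, per the submitters' processing notes. The annotation release and the handling of reads that match several genes are not stated there. The members and lists were chosen with earlier results of these data known.

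The libraries held 8085, 8293 and 9406 barcodes with 101977647, 139250807 and 175075246 UMIs. Barcodes with under 500 genes or over 20% mitochondrial UMIs were left out. Scrublet (scanpy 1.11.5) marked 34 of 16821 cells by its own threshold, under 0.5%, so the top-scoring 6% were removed (260, 350 and 399). The kept 4066, 5488 and 6258 cells were clustered together on 30 components of 2000 variable genes, without gasdermins and Krt4, with 15 neighbours and the Leiden method (leidenalg 0.10.2) at resolution 1. This gave 23 clusters. The 10 urothelial clusters had a summed level of 13 urothelial markers of at least 50% of that over all cells and a median depth of at least 0.333 of their library's median. Urothelial cells of at least 5000 UMIs were read (70924529, 117146008 and 144106047 UMIs).

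UMIs were summed per library as CPM with exact Poisson intervals. Ratios have intervals from the exact binomial interval of the 2 counts, shares exact binomial (Clopper-Pearson) intervals, and differences of shares Newcombe intervals. Cells were thinned to 5000 UMIs for shares. Genes with at least 50 UMIs over both libraries were called past 1.5-fold. No test was run, since there is 1 library per genotype and cells are not replicates. The scripts were tested on simulated data. Named genes were the members, 12 genes set against the copies, the other gasdermins, 2 to 6 per role of the list (a listed gene is not reported here or counted), and the 10 and 5 genes most like the copies and Gsdmd. Sequences and positions came from GENCODE vM21 transcripts, compared with Biopython 1.88.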

Additional observations from a re-analysis of the deposited data

How the results depend on the processing

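No paired analysis was possible because each genotype has 1 library, and for the same reason no replicate could be left out. Of 148 recomputed values, 109 stayed within the counting interval of the reported value, 34 moved outside it in the same direction from 0 and 5 changed sign. The cause of these moves was not tested. The log2 ratio of the copies in the Lpar6 knockout (-0.44) was -0.32 with at least 10000 UMIs per cell, -0.26 with at most 10% mitochondrial UMIs, -0.017 with TMM factors, -0.030 with median-of-ratios factors, -0.64 with cells weighted equally and -0.040 relative to the median gene. Under the same settings the Cab39l knockout ratio (-0.64) was -0.48, -0.51, -0.24, -0.24, -0.97 and -0.25. Gsdmd in the Lpar6 knockout (-0.62) was -0.20 with TMM, -0.22 with median-of-ratios and -0.23 relative to the median gene, and in the Cab39l knockout (-0.05) it was 0.35, 0.34 and 0.33. Alternatives added after seeing the data gave the copies -1.11 in the Lpar6 knockout without cluster 11, -1.23 in the Cab39l knockout in cluster 0 alone, and -0.28 and -0.53 relative to 2266 and 2289 genes of similar transcript length. They gave Gsdmd 0.14 and 0.096 in cluster 0 alone. The share of copy-holding cells with 2 or more copies was 11.5% in wild type, 11.9% in the Lpar6 knockout with thinning to 2000 UMIs, and 10.1% in wild type with 2 UMIs needed. It was 10.9% and 4.55% in the Lpar6 and Cab39l knockouts with cells of at least 500 genes thinned to 1900 UMIs, 13.3% and 10.1% in the Lpar6 knockout in cluster 0 alone and without cluster 11, and 16.8% in the Cab39l knockout without thinning. The Krt4 difference stayed above 0 in each setting run: it was 39.3 points in wild type and 52.3 in the Lpar6 knockout with 2 UMIs of a copy needed, 15.3 in wild type without clusters 4 and 7, 17.0 and 11.4 in the Lpar6 knockout in cluster 0 alone and without cluster 11, and in the Cab39l knockout 17.5 with cells of at least 500 genes and 20.1 with thinning to 2000 UMIs.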

Other observations

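Barcodes above the mitochondrial limit, which no comparison above uses, also held the genes. Of any cell type and with at least 5000 UMIs, 1660, 632 and 823 barcodes (in the order wild type, Lpar6 knockout, Cab39l knockout) had over 20% mitochondrial UMIs. In them the summed copies had 24.5 CPM (22.1 to 27.1), 7.90 CPM (5.62 to 10.8) and 5.49 CPM (3.91 to 7.51), Gsdmd 12, 8.11 and 11.3 CPM and Krt4 43.6, 23.9 and 67.0 CPM. Wild type was the highest for the copies and the Cab39l knockout for Krt4, the same orders of first place as among the cells under the limit.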
